A study of Mus musculus with 2 samples.

Results

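The keratin gene clusters were examined in H2BK120ub peak lists of liver cells, with 1 list for WT cells and 1 for Alb-Cre;UBR7fl/fl cells (UBR7-KO). Their members are all peaks that overlapped, by at least 1 bp, the type I cluster on chromosome 17 (38800000 to 39800000, hg19) or the type II cluster on chromosome 12 (52550000 to 53350000, hg19). The WT list gave 120 members of 101866 peaks and the UBR7-KO list gave 100 of 127444. The last stretch of the type II cluster, which holds KRT8 and KRT18 (53285000 to 53350000), was set apart. It is called the KRT8-KRT18 end. Members were thus 52 WT and 47 UBR7-KO peaks in the type I cluster, 62 and 49 in the rest of the type II cluster, and 6 and 4 in the KRT8-KRT18 end.

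Each genotype had 1 chromatin immunoprecipitation sequencing (ChIP-seq) library, so no difference below has a replicate error and no test between genotypes was possible. Both libraries came from mouse primary liver cells that the labels describe as conditionally immortalized and grown in DMEM with fetal bovine serum. WT cells carried no deletion by their label. In UBR7-KO cells, Cre driven by the albumin promoter, which is active in hepatocytes, deletes floxed UBR7, an E3 ubiquitin ligase. The deletion is thus limited to cells in which this promoter was active, and peak lists do not show whether it took place. The positions are those of the human genome hg19 although the cells are labelled as mouse, and human material cannot be told apart here from mouse reads placed on a human genome.

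Keratins build the intermediate filaments of epithelial cells as pairs of an acidic type I and a basic type II chain. KRT8 and KRT18 form the main pair of hepatocytes, KRT7 and KRT19 mark bile duct cells, KRT5 and KRT14 basal keratinocytes, KRT1 and KRT10 the layers above them, and the hair keratins with the keratin-associated proteins (KRTAPs) build the hair shaft. H2BK120ub, a single ubiquitin on histone H2B, is known for its place over the bodies of transcribed genes. KRT18 is the type I gene that lies in the type II cluster, beside its partner KRT8.

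Gene borders of hg19 were not used here, so no peak was assigned to a gene and the labelled cell type was not checked by marker genes. Neighbours are named from the mouse gene table (GRCm38), whose order the human clusters largely share. In that table the type I cluster holds 27 keratin and 23 KRTAP genes. It runs from Krt222, Krt24 to Krt28 and Krt10, through Krt12, Krt20 and Krt23, to the KRTAP genes and the hair keratins Krt31 to Krt36. It closes with Krt13, Krt15, Krt19, Krt9, Krt14, Krt16, Krt17 and Krt42. The type II cluster holds 26 keratin genes. It runs from Krt80 and Krt7 through the hair keratins, Krt6a, Krt5, Krt2 and Krt1 to Krt4, Krt79 and Krt78, and ends with Krt8 and Krt18. The lower border of a cluster below means the end with the smaller coordinate, near KRT222 or KRT80.

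Peaks covered unequal shares of the clusters, and both were covered less in the UBR7-KO list as deposited. A covered share is the length under peaks called in each library, and not an amount of the mark. Peaks covered 16.9% of the type I cluster in WT and 10.2% in UBR7-KO, a ratio of 0.603. In the type II cluster without its KRT8-KRT18 end, they covered 41.2% and 22.8%, a ratio of 0.555. The KRT8-KRT18 end had the highest share of the 3 stretches in WT, at 56.4%, against 17.8% in UBR7-KO, a ratio of 0.316. Over the whole genome the shares were 11.6% and 10.3%, a ratio of 0.885.

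These ratios depended on the threshold. With only fold enrichments of 2.5 or more kept, the ratio became 0.236 in the type I cluster and 0.0724 in the rest of the type II cluster. With only pileups of 3 or more times the local background kept, it was 0.859 and, with its direction turned, 1.12. The KRT8-KRT18 end kept no peak at the first threshold. At the second its direction turned as well, with 0% covered in WT and 12.8% in UBR7-KO. Neither threshold is alike in both lists. Fold enrichment adds 1 to pileup and background before dividing. At the lower background of UBR7-KO, the first threshold thus asks for a higher pileup over background than in WT. The second threshold asks for a lower fold enrichment there than in WT. Of the whole lists, 16.9% of WT and 9.77% of UBR7-KO peaks passed the first threshold. No ratio over the genome was taken at either threshold. Over the whole lists the median of pileup over background was 2.73 in WT and 2.96 in UBR7-KO. The part of these differences in the lower ratios and in the turned directions was not tested. Background and pileup are explained where the strength of the peaks is described.

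**Figure D1:**
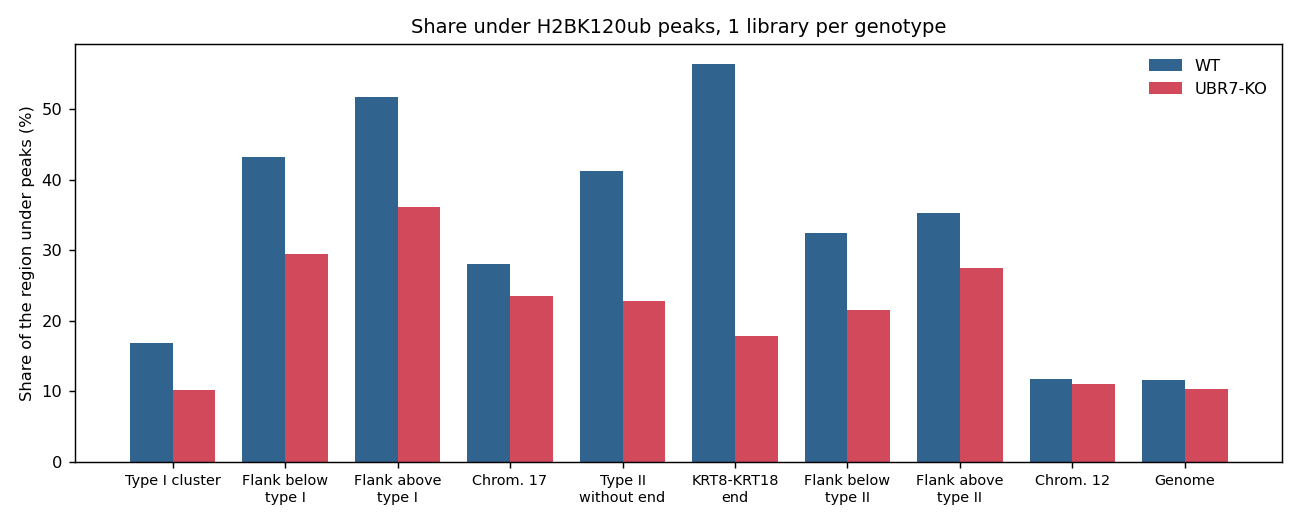
Share of each region under H2BK120ub peaks (%), for WT (blue) and UBR7-KO (red), 1 library each and therefore without error bars. The type I cluster (16.9% in WT) stood below both of its flanks (43.1% and 51.7%), whereas the type II cluster without its end (41.2%) stood above its own (32.4% and 35.2%).

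Set against its surroundings, the type I cluster was thinly covered by peaks. The flank of equal length below it had shares of 43.1% (WT) and 29.4% (UBR7-KO), and the flank above it of 51.7% and 36.1%. The ratios of these flanks were 0.681 and 0.70. Chromosome 17 as a whole was covered at 28.1% and 23.4%. The type I cluster was thus covered less than both flanks and its chromosome in either list.

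The type II cluster did not form such a gap. Its flanks were covered at 32.4% and 35.2% in WT and at 21.6% and 27.5% in UBR7-KO, with ratios of 0.665 and 0.780. In WT the cluster without its end was above both flanks, and in UBR7-KO it lay between them. Chromosome 12 as a whole was covered at 11.8% and 11.02%, below the cluster and both flanks.

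Windows of the same size over the whole genome give the scale. Among 2884 windows of 1000 kb with a peak in either list, the median share was 5.40% in WT and 6.98% in UBR7-KO, below the type I cluster in both. Among 3590 windows of 800 kb the medians were 5.25% and 6.92%, against 42.4% and 22.4% for the type II cluster with its end. The covered share was at least 2-fold lower in UBR7-KO in 3.33% of the windows of 1000 kb and 4.37% of those of 800 kb, and neither cluster reached that fold.

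The KRT8-KRT18 end, 65 kb long, was past it. Of 41940 windows of 65 kb with a peak, 23.8% were at least 2-fold lower in UBR7-KO and 33.0% at least 2-fold higher, so such a difference is common at this size. Its surroundings differed in direction. The 65 kb below it, which lie inside the type II cluster, went from 61.0% in WT to 12.3% in UBR7-KO, a ratio of 0.202, whereas the 65 kb above it went from 13.7% to 32.7%, a ratio of 2.39. With the outer border moved outward by 10 kb, the ratio of the end became 0.515.

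The peaks of the KRT8-KRT18 end are given in full. In WT the first peak spanned 15072 bp (53286919 to 53301990) with a pileup of 7.80 and a fold enrichment of 2.27. The second spanned 4969 bp (53304449 to 53309417) with a fold enrichment of 2.06. After a gap of 10.3 kb without a peak in either list came peaks of 3101 bp (53319717 to 53322817) and 1467 bp (53324150 to 53325616), with fold enrichments of 2.01 and 2.05.

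The fifth WT peak of the end spanned 10377 bp (53333016 to 53343392) with a fold enrichment of 2.18, and the sixth 1678 bp (53344599 to 53346276) with 2.01. None of the 6 reached 2.5. Of the 6, 2 exceeded 10000 bp, beside 7.58% of all WT peaks.

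The UBR7-KO list had 4 peaks there. The first spanned 2361 bp (53287320 to 53289680) with a fold enrichment of 2.01, and it lay wholly inside the first WT peak, of which it filled 15.7%. The second spanned 903 bp (53321042 to 53321944) with 2.06, inside the third WT peak. The third spanned 8178 bp (53327430 to 53335607) with a pileup of 5.13 and a fold enrichment of 2.42, the highest of the end in either list. It shared 2592 bp with the fifth WT peak, which was 24.98% of that peak.

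The fourth UBR7-KO peak spanned 12762 bp (53349875 to 53362636) and reached the end by its first bases only, so it belongs mostly to the flank above. Within the end, 5.86 kb were covered in both lists, or 16.0% of what WT covered and 50.6% of what UBR7-KO covered, beside 40.5% and 45.7% over the genome. When the end was cut into 13 tiles of 5 kb, 8 were covered by 50% or more in WT, 2 in UBR7-KO and 0 in both. Over the genome 43.1% of such WT tiles were also covered to this extent in UBR7-KO, and 54.2% of such UBR7-KO tiles in WT. In UBR7-KO, too, no peak of the end reached a fold enrichment of 2.5.

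**Figure D2:**
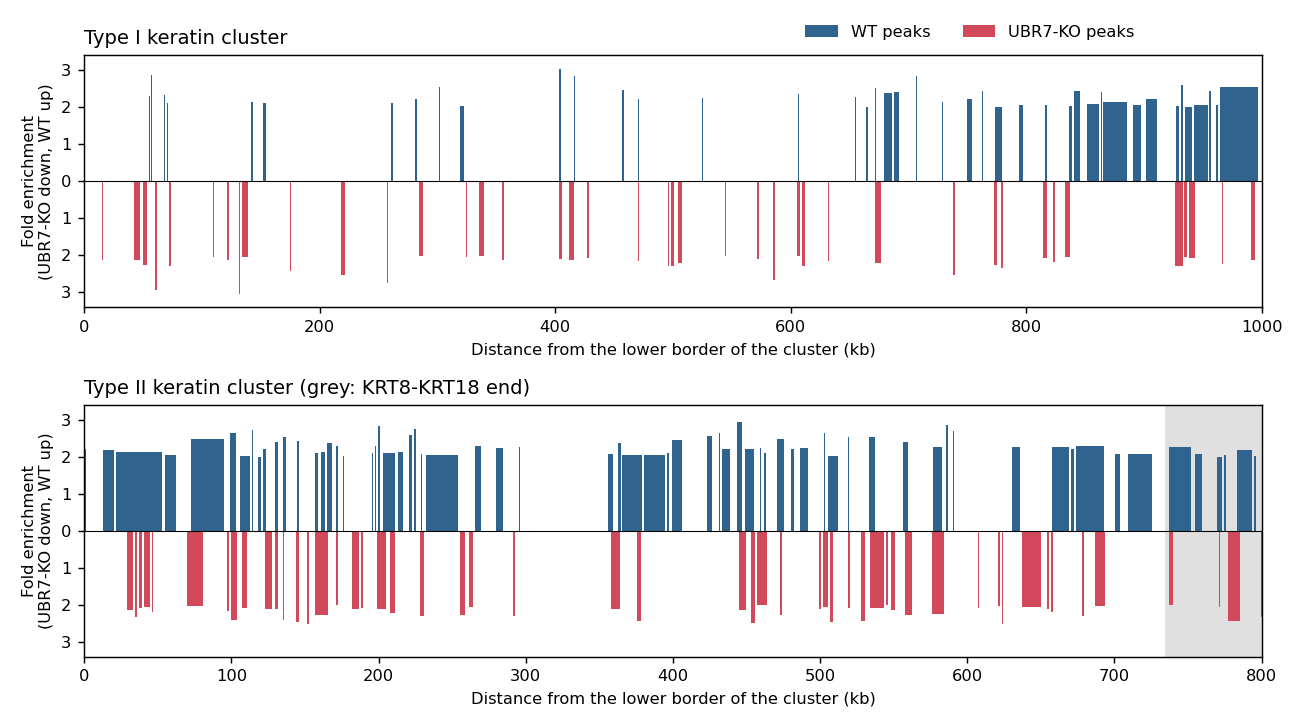
Peaks of the type I cluster (top) and the type II cluster (bottom) by distance from the lower border (kb); bar width is the peak's extent and bar height its fold enrichment, with WT upward in blue and UBR7-KO downward in red, and the KRT8-KRT18 end in grey. Wide WT peaks crowd the upper end of the type I cluster, where the longest spans 32867 bp, and the type II cluster has a stretch of 59.7 kb without a peak of either list.

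Within the type I cluster WT coverage was concentrated at the upper end, whereas UBR7-KO coverage ran from 6.74% to 14.96% over the cluster. By the mouse gene order the cluster closes with Krt13, Krt15, Krt19, Krt9, Krt14, Krt16, Krt17 and Krt42. That order gives no positions, so no gene was placed in a stretch. The cluster was divided into stretches 1 to 5 of equal length, counted from the lower border, a division chosen after its values were seen. Stretch 5 was covered at 56.7% in WT, that is 113.5 of 200 kb, and at 14.96% in UBR7-KO, a ratio of 0.264. Stretch 4 was covered at 16.0% and 8.03%, a ratio of 0.503. Stretches 1 to 3, counted from the KRT222 side of the gene order, were little covered in WT.

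In these 3 stretches the direction turned. Stretch 1 was covered at 3.67% in WT against 10.9% in UBR7-KO, a ratio of 2.98. Stretch 2 was covered at 4.22% and 6.74%, a ratio of 1.60, and stretch 3 at 3.92% and 10.3%, a ratio of 2.64. For scale, the median over all windows of 200 kb was 4.78% for WT against 6.32% for UBR7-KO. The WT list was thus below its median in all 3 stretches, and UBR7-KO was above its own.

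Of the 5 stretches, 2 were at least 2-fold higher in UBR7-KO and 1 was at least 2-fold lower, where 23.1% and 13.0% of all windows of 200 kb were. The difference between the lower and upper part of the cluster was not tested. The direction was not firm in every stretch. At a fold enrichment of 2.5 or more the ratio of stretch 3 turned to 0.621, with lists of equal size that of stretch 2 turned to 0.612, and at 3 times the background that of stretch 4 turned to 5.58. The ratio of stretch 1 stayed above 1 and that of stretch 5 below 1 under each of these settings and under merging.

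**Figure D3:**
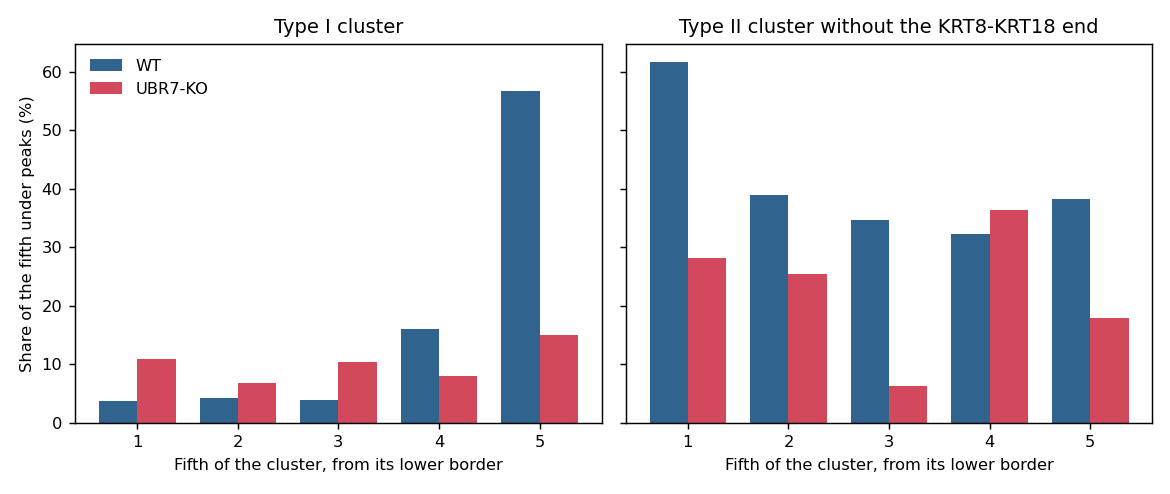
Share under peaks (%) in stretches 1 to 5, of equal length, of the type I cluster (left) and the type II cluster without the KRT8-KRT18 end (right), counted from the lower border, for WT (blue) and UBR7-KO (red), 1 library each. WT coverage is highest in the last stretch of the type I cluster (56.7%) and in the first of the type II cluster (61.6%), and the UBR7-KO bar is the higher one in 4 of the 10 stretches.

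The strongest contrast at the upper end lay in a few broad WT peaks. The longest member of the type I cluster spanned 32867 bp (39764434 to 39797300) with a pileup of 7.77 and a fold enrichment of 2.55. In UBR7-KO, 3 short peaks fell on it and filled 17.2% of its length. The next spanned 20081 bp (39665645 to 39685725) with a fold enrichment of 2.15 and no UBR7-KO counterpart. The nearest UBR7-KO peak was 19522 bp away.

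Another WT peak of 11653 bp (39742725 to 39754377) met a UBR7-KO peak over 822 bp. The peak of 20081 bp lay within the longest stretch of the type I cluster without any UBR7-KO peak, 80.5 kb (39646123 to 39726584). In WT the longest bare stretch of the same cluster lay in its lower part and was 106 kb long (38954624 to 39060443).

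In UBR7-KO the longest members of the type I cluster were shorter, with 0 of 47 over 10000 bp against 4 of 52 in WT (7.69%). Over the whole lists 3.75% of peaks in UBR7-KO and 7.58% in WT were as long, so the WT share was close to that of its list. They spanned 6262 bp (39726585 to 39732846), 5452 bp (39471496 to 39476947) and 5109 bp (38933746 to 38938854). The first met 2 WT peaks over 69.2% of its length, and the third had no WT counterpart.

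The type I members with the highest fold enrichment were short. In WT they were peaks of 1683 bp (39202911 to 39204593) with a fold enrichment of 3.03, of 437 bp (38856753 to 38857189) with 2.87 and of 475 bp (39506671 to 39507145) with 2.84. The first overlapped a UBR7-KO peak over 94.2% of its length and the other 2 had none. In UBR7-KO they were peaks of 1484 bp (38931060 to 38932543) with 3.05, of 1496 bp (38859922 to 38861417) with 2.95 and of 683 bp (39057400 to 39058082) with 2.75. None of these 3 overlapped a WT peak, although the nearest was between 2361 and 8887 bp away.

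Within the type II cluster WT coverage was spread more evenly. Divided in the same way, its stretch 1, on the KRT80 side of the gene order, was covered at 61.6% in WT against 28.1% in UBR7-KO, a ratio of 0.457. Stretch 2 was covered at 38.9% and 25.5%, a ratio of 0.655. Stretch 3, covered at 34.6% and 6.28%, had the lowest ratio of the 10, 0.182.

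Stretch 4 went the other way, with 32.3% in WT against 36.4% in UBR7-KO, a ratio of 1.13. It fell below 1 when peaks within 5000 bp were merged (0.897) and with lists of equal size (0.887). Stretch 5, just below the KRT8-KRT18 end, was covered at 38.3% and 18.0%, a ratio of 0.469. At least 2-fold lower in UBR7-KO were 3 of the 5 stretches, where 15.8% of all windows of 147 kb were, and 0 were at least 2-fold higher, where 25.9% were. At 3 times the background, stretches 1, 2 and 5 turned to 1.01, 1.96 and 1.02.

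The longest WT peak of the type II cluster lay in stretch 1 and spanned 31078 bp (52571834 to 52602911) with a fold enrichment of 2.14. It held 5 UBR7-KO peaks, the most of any member, which together filled 39.1% of it. A peak of 23487 bp (52527674 to 52551160) reached the cluster by its last bases only, so it belongs mostly to the flank below, and had no counterpart. A peak of 21936 bp (52622858 to 52644793), with a pileup of 8.35 and a fold enrichment of 2.47, overlapped a single UBR7-KO peak over 7831 bp.

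In UBR7-KO the longest members of the type II cluster spanned 12542 bp (53187381 to 53199922), 11126 bp (52619563 to 52630688) and 9664 bp (53083890 to 53093553). The first had no WT counterpart although the nearest WT peak was 1896 bp away. Over 10000 bp were 2 of 49 UBR7-KO peaks and 9 of 62 WT peaks of the cluster without its end, and 3.75% and 7.58% of the whole lists. The 9 include the WT peak of 23487 bp that lies mostly in the flank below.

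The type II members with the highest fold enrichment in WT were peaks of 3221 bp (52993588 to 52996808) with 2.94, of 1088 bp (53135553 to 53136640) with 2.87 and of 1590 bp (52749661 to 52751250) with 2.82 and a pileup of 10.5. The last was the highest pileup of all members, and it lay wholly inside a UBR7-KO peak. In UBR7-KO they were peaks of 391 bp (53173847 to 53174237) with 2.52, of 1433 bp (52701410 to 52702842) with 2.52 and of 2956 bp (53002706 to 53005661) with 2.48. Only the last of these met a WT peak. The longest stretch without a peak in either list spanned 59.7 kb (52846007 to 52905702).

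Next, members were matched by position. In the type I cluster, 18 of 52 WT peaks (34.6%, 95% Wilson interval 23.1 to 48.2) overlapped a UBR7-KO peak by at least 1 bp, and 19 of 47 UBR7-KO peaks (40.4%, interval 27.6 to 54.7) overlapped a WT peak. In the rest of the type II cluster, 31 of 62 WT peaks (interval 37.9 to 62.1) and 32 of 49 UBR7-KO peaks (65.3%, interval 51.3 to 77.1) did so. Matched shares of the whole lists were 40.2% in WT and 35.2% in UBR7-KO. Only counting error enters the intervals, which treat neighbouring peaks as independent. They are not, since 5 UBR7-KO peaks were matched through a single WT peak of 31078 bp, so no conclusion is drawn from the intervals.

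The type I share was below that of the whole list in WT and above it in UBR7-KO. It was below both flanks of the cluster, with 64.4% and 74.0% in WT and 63.5% and 68.7% in UBR7-KO. The type II shares were above those of the whole lists. Their flanks had 42.1% and 56.8% in WT and 62.5% and 56.4% in UBR7-KO. A high matched share in UBR7-KO was thus not particular to the type II cluster. Longer peaks meet another list more easily, and type II members were longer, with medians of 3076 bp (WT) and 2767 bp (UBR7-KO) against 1249 and 1910 bp in the type I cluster. The parts of peak length and of the covered share of a region in these differences were not tested.

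Matching was absent from the lower part of the type I cluster. In its stretches 1 and 2, a counterpart was found for 0 of 14 WT peaks and for 0 of 18 UBR7-KO peaks, so every peak between 38800000 and 39199999 was seen in 1 list only, where 40.2% and 35.2% of the whole lists were matched. Gaps from these peaks to the nearest peak of the other list ran from 559 to 39524 bp. WT covered only 3.67% and 4.22% of the stretches, and the part of this in the absent overlap was not tested. These stretches were chosen after their values were seen. In stretch 3 matched peaks were 6 of 8 in WT and 6 of 12 in UBR7-KO, and in stretch 4 they were 3 of 14 and 4 of 7. In stretch 5, 9 of 16 peaks were matched in WT and 9 of 10 in UBR7-KO.

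Matched members rarely had the same borders. Of 63 overlapping pairs, 8 shared at least 50% of both peaks, 2 in the type I cluster, 6 in the rest of the type II cluster and 0 in the KRT8-KRT18 end. Over the clusters without the end these were 7.02% of members in WT and 8.33% in UBR7-KO, beside 15.04% and 12.02% of the whole lists. A close pair lay in the type II cluster, with a WT peak of 2247 bp (52679491 to 52681737) and a UBR7-KO peak of 2173 bp (52679751 to 52681923) that shared 1987 bp, or 88.4% and 91.4% of their lengths. Their fold enrichments were 2.39 and 2.12. Another pair, a WT peak of 6517 bp (53126572 to 53133088) inside a UBR7-KO peak of 8400 bp (53125965 to 53134364), had fold enrichments of 2.27 and 2.26.

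By length, 24.6 kb of the type I cluster were covered in both lists, which was 14.5% of the WT and 24.1% of the UBR7-KO length. In the rest of the type II cluster 81.7 kb were shared, 27.0% and 48.7%. The whole genome shared 40.5% and 45.7%, so that the type II cluster lay below it by the WT length and above it by the UBR7-KO length. The flanks of the type I cluster shared 38.2% and 44.2% of their WT length and 56.0% and 63.2% of their UBR7-KO length. Those of the type II cluster shared 43.6% and 34.7% of the WT length and 65.5% and 44.4% of the UBR7-KO length. Tiles of 5 kb gave a like order. Of the tiles covered by 50% or more in WT, 4 of 28 in the type I cluster and 13 of 59 in the rest of the type II cluster were so in UBR7-KO too, where 43.1% were over the genome. Of those covered to this extent in UBR7-KO, 4 of 15 and 13 of 31 were so in WT, where 54.2% were over the genome.

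As deposited, peak numbers in the clusters went against those of the lists, but this direction depended on how peaks were split. The clusters without the end held 114 WT and 96 UBR7-KO peaks, a ratio of 0.842, where the whole lists had 1.25, chromosome 17 had 1.29 and chromosome 12 had 1.28. Both flanks of both clusters held more peaks in UBR7-KO, with ratios from 1.05 to 1.40. Per Mb the type I cluster had 52.0 WT and 47.0 UBR7-KO peaks and the rest of the type II cluster 84.4 and 66.7, against 32.9 and 41.2 over the genome. With peaks within 5000 bp merged the order turned in each of the 3 zones, to 36 WT and 37 UBR7-KO peaks in the type I cluster, 22 and 27 in the rest of the type II cluster and 3 and 4 in the end. At 3 times the background it turned in the type I cluster, with 12 and 20 peaks, and in the end, with 0 and 2. In WT, 21 of 52 type I peaks were under 1000 bp and 14 of 62 in the rest of the type II cluster, and in UBR7-KO 14 of 47 and 5 of 49. These were 40.4% and 22.6% in WT, beside 35.1% of the whole list, and 29.8% and 10.2% in UBR7-KO, beside 39.3%.

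**Figure D4:**
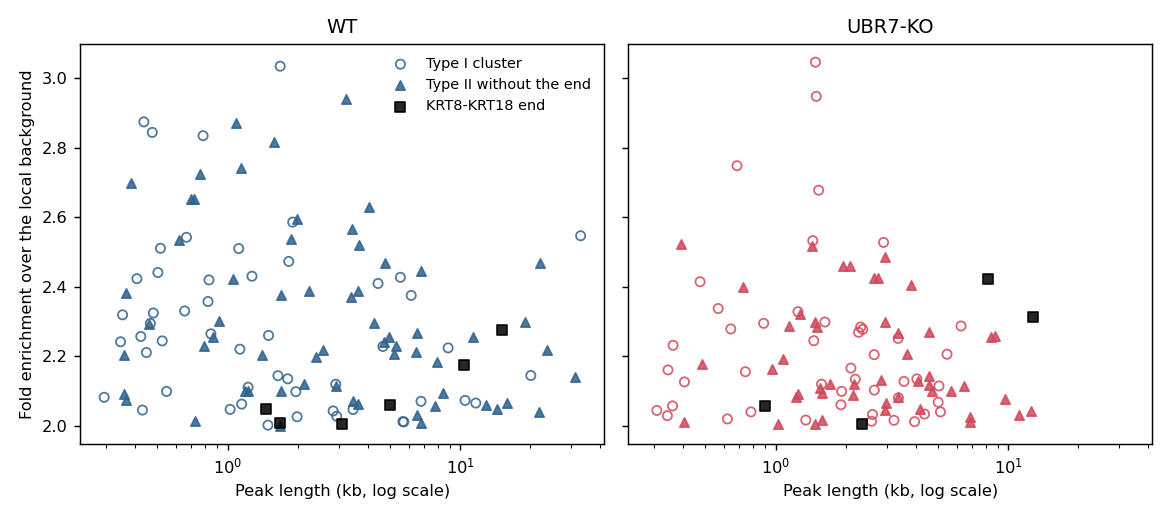
Fold enrichment (peak over local background) against peak length (kb, log scale) for the members in WT (left, blue) and UBR7-KO (right, red); open circles are the type I cluster, triangles the type II cluster without its end and black squares the KRT8-KRT18 end. No member over 12762 bp is seen in UBR7-KO, and the squares of both lists lie below a fold enrichment of 2.5.

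Outside the KRT8-KRT18 end, the median fold enrichment of the members was close to that of their lists. Pileup measures the fragments stacked over a peak, as a signal that scales with depth and is not a whole count. Fold enrichment divides it by the local background of its own library, after 1 is added to both. Pileups of members ran from 5.04 to 10.5 in WT and from 3.57 to 6.37 in UBR7-KO, with no stacks of the kind that reach 781.6 and 997.2 elsewhere. The median fold enrichment was 2.24 in the type I cluster and 2.25 in the rest of the type II cluster in WT, and 2.16 and 2.13 in UBR7-KO, beside 2.20 and 2.15 over the whole lists. In the KRT8-KRT18 end it was 2.06 in WT and 2.19 in UBR7-KO. Median pileups of the type I cluster, the rest of the type II cluster and the end were 6.91, 7.385 and 7.12 in WT, beside 6.45. In UBR7-KO they were 4.47, 4.74 and 4.955, beside 4.41. A fold enrichment of 2.5 or more was found for 23 of 114 WT members without the end (20.2%) and for 8 of 96 UBR7-KO members (8.33%), beside 16.9% and 9.77% of the whole lists. In UBR7-KO these were 6 of 47 type I peaks (12.8%) and 2 of 49 in the rest of the type II cluster (4.08%). With so few peaks, no difference between the clusters is drawn from these shares. In WT the shares were 17.3% and 22.6%.

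The background under the members differed more between the lists than between the zones. Recovered from pileup and fold enrichment, its median was 2.61 in the type I cluster, 2.65 in the rest of the type II cluster and 2.83 in the KRT8-KRT18 end in WT. The same medians were 1.54, 1.62 and 1.64 in UBR7-KO, and 2.31 and 1.45 over the whole lists. All 3 zones thus lay above the median of their list. The lower background of UBR7-KO goes through the whole list, by a factor of 1.59 between the medians. It scales with read depth, which is unknown, and its part in the shorter coverage of the clusters was not tested. In stretches 1 to 3 of the type I cluster, where UBR7-KO covered more, its median background was 1.63, 1.66 and 1.48 against 2.56, 2.59 and 2.15 in WT.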

How the data were processed

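Peaks of H2BK120ub ChIP-seq in 1 WT and 1 UBR7-KO library were analysed. The submitters' processing notes name FastQC, Bowtie 1.1.2 and hg19, whereas the methods name BWA aln, the human genome hg19 and MACS. The q-value threshold and the use of the IgG control are not given in the sources used here. Each library had its own peak calling by the authors. The deposited pileup is a signal that scales with depth. The deposited fold enrichment is a ratio of pileup to local background, with no value under 2. The number of reads is unknown.

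From the UBR7-KO list 6 blank rows were dropped. Covered length was clipped to each region. Background was recovered as pileup plus 1, divided by fold enrichment, minus 1. Chromosome lengths of hg19 came from the R package GenomeInfoDb. Windows and tiles start at the first base of each chromosome, and windows without a peak in either list were left out. Shares have 95% Wilson intervals. The interval code (Python 3.11.15, numpy 2.4.6, pandas 2.3.3, scipy 1.17.1) was tested on 20000 simulated peaks against known answers and bedtools. With 1 library per genotype no test was run. The members and the cuts of the clusters were chosen with earlier results of these data known. The peaks named are all those of the KRT8-KRT18 end, the 3 longest and the 3 with the highest fold enrichment per list and cluster, and the longest bare stretch. The matched pairs were added after their values were seen. A gene list of 29 type I and 26 type II keratins had been set up for an hg19 annotation, which was not used here, so genes were not counted as covered or bare. No sequence is shown, since no sequence of the build was used here.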

Additional observations from a re-analysis of the deposited data

Results flagged for a closer look

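The lower part of the type I cluster went against the rest of it. The ratio of covered length, UBR7-KO over WT, was 2.98, 1.60 and 2.64 in its stretches 1, 2 and 3, whereas it was 0.503 and 0.264 in stretches 4 and 5. For scale, 23.1% of all windows of 200 kb were at least 2-fold higher in UBR7-KO and 13.0% at least 2-fold lower. In windows of 1000 kb, the length of the whole type I cluster rather than of a stretch, the UBR7-KO share was the lower one in 42.4%. In the type II cluster without its KRT8-KRT18 end, the ratio was 1.13 in stretch 4 and between 0.182 and 0.655 in the others. Each value compares 1 library with 1 library, and the differences between stretches were not tested.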

How the results depend on the processing

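No paired analysis was possible because only 1 library per genotype was analysed, which also leaves no replicate to omit. The alternatives for the 5 stretches were chosen after seeing the data. A count, share of length or ratio was taken as unmoved within 1.5 times its main value, and a matched share within its Wilson interval.

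A fold enrichment of at least 2.5 left 9 WT and 6 UBR7-KO peaks in the type I cluster (4.04% and 0.955% covered, ratio 0.236), 14 and 2 in the rest of the type II cluster (3.43% and 0.248%, ratio 0.0724) and 0 and 0 in the KRT8-KRT18 end (0% covered in both). Matched were 0% of the 23 WT and 0% of the 8 UBR7-KO peaks outside the end, and the end, without peaks, had no matched share. The matched shares of the whole lists were not taken at this threshold or at the next. Matched shares at these thresholds thus have no scale and are not read as particular to the clusters. A pileup of at least 3 times the background left 12 and 20 peaks in the type I cluster (4.44% and 3.81%), 17 and 16 in the rest of the type II cluster (5.14% and 5.75%, ratio 1.12, reversed) and 0 and 2 in the end (0% and 12.8%, reversed). Matched were 20.7% and 16.7% outside the end and 0% of the UBR7-KO peaks in it. At the lower background of UBR7-KO this threshold asks for a lower fold enrichment than in WT, and the cause of the turns was not tested. A fold enrichment of 2.5 in turn asks for a higher pileup over background in UBR7-KO than in WT.

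Merging within 5000 bp turned the order of the peak counts, to 36 WT and 37 UBR7-KO peaks in the type I cluster, 22 and 27 in the rest of the type II cluster and 3 and 4 in the end, where 100% of the WT peaks were matched. An overlap of 50% of both peaks matched 7.02% of WT and 8.33% of UBR7-KO peaks outside the end, and 0% and 0% in it. Borders 10 kb outward gave the end 28.8% in UBR7-KO and a ratio of 0.515. By these limits 91 values each counted as unmoved, among them those of equal list size, midpoints and borders moved inward, but also the merged type I counts and the 12.8%, whose order against the other list turned.

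In the type I cluster the ratio turned to 0.621 in stretch 3 (fold enrichment of 2.5), 0.612 in stretch 2 (equal size) and 5.58 in stretch 4 (3 times the background). In the type II cluster it turned to 1.01, 1.96 and 1.02 in stretches 1, 2 and 5 (3 times the background), to 1.02 in stretch 5 (fold enrichment of 2.5), and to 0, 0.887 and 0.897 in stretch 4 (fold enrichment of 2.5, equal size and merging). Of the other 30 values 18 stayed within 1.5 times and 12 moved without turning. Depth is unknown, and with 4 and 6 peaks the KRT8-KRT18 end allows no firm share.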
